A study of Mus musculus with 6 samples.

Results

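The partners through which E2F transcription factors act were followed across 10 genes in the injured mouse colon. These genes encode the pocket proteins (Rb1, Rbl1, Rbl2), the DP subunits that pair with E2F proteins (Tfdp1, Tfdp2), core subunits of the MuvB complex (Lin9, Lin37, Lin54), and the activators B-MYB (Mybl2) and FOXM1 (Foxm1). They were taken by symbol as a fixed list, chosen with earlier results of these data known, and all 10 were found among the 27546 genes in the table. RNA-Seq had been carried out on colon tissue of 3 Gm31629-/- mice and 3 WT littermates, with 1 library per mouse. All 6 mice were C57BL/6 by their labels (C57BL/6J in the methods), were 8 weeks old, drank 3% DSS (dextran sulfate sodium, which damages the epithelium of the colon) for 7 days, and were killed on day 8, so no mouse was without injury. Gm31629 is a long noncoding RNA gene, the titles of the Gm31629-/- samples read KD, and its own level was not analysed here. The question was how the 2 genotypes differed in the machinery that turns cell cycle genes on and off.

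In a resting cell, a pocket protein holds an E2F-DP pair at the promoter of a cell cycle gene and keeps it silent. RBL1 (p107) and RBL2 (p130) do so together with E2F4 or E2F5, a DP subunit, and MuvB in an assembly called DREAM, and RB1 binds mainly the activating E2F proteins. When cyclin-dependent kinases phosphorylate the pocket proteins, E2F proteins turn on genes of DNA replication, and MuvB leaves DREAM, binds B-MYB and later FOXM1, and turns on genes of mitosis. In the intestine these programs run in the dividing cells of the crypt, which renew the epithelium. Mybl2 and Rbl1 are themselves E2F target genes in dividing cells, and Foxm1 rises as cells enter the cycle.

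Short promoter stretches of 3 of the 10 genes are shown because they hold an E2F-type site close to the transcription start. Each runs 5′ to 3′ over the 60 bases before a RefSeq start (GRCm38.p6), and the capitals mark the site.
Mybl2, chr2:163054575-163054634, plus strand: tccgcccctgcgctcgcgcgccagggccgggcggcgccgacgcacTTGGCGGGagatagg
Rbl1, chr2:157204535-157204594, minus strand: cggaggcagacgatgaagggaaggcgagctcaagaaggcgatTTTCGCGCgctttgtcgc
Tfdp1, chr8:13338691-13338750, plus strand: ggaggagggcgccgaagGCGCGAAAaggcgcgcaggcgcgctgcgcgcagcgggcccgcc
The letters searched on both strands were TTTCCCGC, TTTCGCGC, TTTGCCGC, and TTTGGCGC, which were found in 2.26% of 32851 RefSeq promoter windows. Each window holds 300 bases around a start and so is longer than the stretches shown. Among the 7 members with a window they were found in Rbl1, with the first base 18 bases upstream of the start, and in Tfdp1, on the opposite strand and 43 bases upstream. The Mybl2 site is spelled TTGGCGGG, letters chosen after its sequence was seen, which 0.97% of windows held. It began 15 bases upstream of the Mybl2 start and was also found in Lin54. The CHR element bound by LIN54, searched as TTTGAA or TTCGAA (the latter reads the same on both strands), was found in 19.23% of all windows and in those of Lin37, Lin54, and Rbl2. These matches describe letters in a window and not binding.

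Expression was deposited as FPKM (fragments scaled to the length of the gene and the depth of the library), so levels of different genes can be set side by side per length. By the size of 1 fragment in the low values, the libraries held 18005500 to 18794800 fragments. Of 12 colon epithelial markers, none was at 0 in any library. In Gm31629-/- mice 6 were called lower (adjusted p under 0.05 in the limma test described below) and 6 were not called. The shares of all tested genes, to be set beside this and the marker counts that follow, were 14.6% called lower and 28.9% called higher. Their log2 fold changes ran from −3.135 (Cdx2) to 0.513 (Tspan8), with Epcam at 0.005 and Cdh1 at −0.042. The markers thus did not move together, and the scaling to them used below rests on this mixed list. That scaling used the geometric mean of the 12 markers in each library, not their sum. Each marker counts there by its log2 change, so Cdx2 weighed most in the scaling. The sum of the 12 was 7236 to 8638 FPKM in Gm31629-/- and 11813 to 12854 FPKM in WT mice. Krt8 (means 2042 against 4198 FPKM) and Krt19 (1042 against 2068 FPKM) weighed most in the difference between these sums. Markers of other cell types were higher in Gm31629-/- mice. Summed over 10 markers, smooth muscle reached 1165 to 1794 FPKM in Gm31629-/- and 21.7 to 38.3 in WT mice, with 10 of 10 markers called higher. The corresponding ranges in Gm31629-/- against WT mice were 168 to 491 against 17.5 to 34.7 for 7 fibroblast markers (7 called higher), 507 to 1029.5 against 70.4 to 128 for 6 neutrophil markers (6 called), 450 to 1120 against 86.1 to 93.5 for 6 macrophage markers (5 called), 12.8 to 27.3 against 5.75 to 8.37 for 6 T cell markers (4 called), and 232 to 419 against 14.6 to 21.5 for 6 B and plasma cell markers (6 called). The RNA of cell type markers therefore differed with genotype in every comparison below, and the part of tissue makeup in the results was not tested. In bulk tissue, fewer cells of a type and less RNA per cell cannot be told apart. The methods state male mice, yet Xist was at 8.35 to 13.8 FPKM in 5 libraries and at 0.006 in Gm31629-/- mouse 1, which alone had values above 0 for the Y-linked genes Ddx3y, Eif2s3y, Kdm5d, and Uty. Values without that mouse are given for each member, for the ratios between members, and for the counts of the E2F and target lists, but not for single genes of the lists.

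Differences were tested with limma on log2(FPKM + 1) over 14657 genes whose mean FPKM reached 0.5, and genes with an adjusted p (Benjamini-Hochberg) under 0.05 were called. A fold change on this scale understates the change of a gene with a low level. The labels give no more than 1 sample per mouse, so p-values measure the spread between these 6 samples. Of the 10 members, all of which were tested, 3 were called lower in Gm31629-/- mice (Mybl2, Foxm1, and Tfdp1) and none higher, also at an unadjusted limma p under 0.05 or with voom. Over all tested genes, limma called 14.6% lower and 28.9% higher. The epithelial marker scaling described below called 1 member lower (Mybl2) and 3 higher (Rb1, Rbl2, and Lin37). Of 14988 genes tested under that scaling, 428 were called lower and 8195 higher. Mybl2, Foxm1, and Tfdp1 were also the members whose 3 Gm31629-/- values all lay below the 3 WT values. No member lay wholly above, where 21.5% of all tested genes lay wholly below and 36.3% wholly above. The median log2 fold change of the 10 members was −0.03, beside 0.15 over all tested genes. With a log2 fold change below −1 asked for as well, 2 members remained, Mybl2 and Foxm1, against 4.64% of all tested genes.

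**Figure D1:**
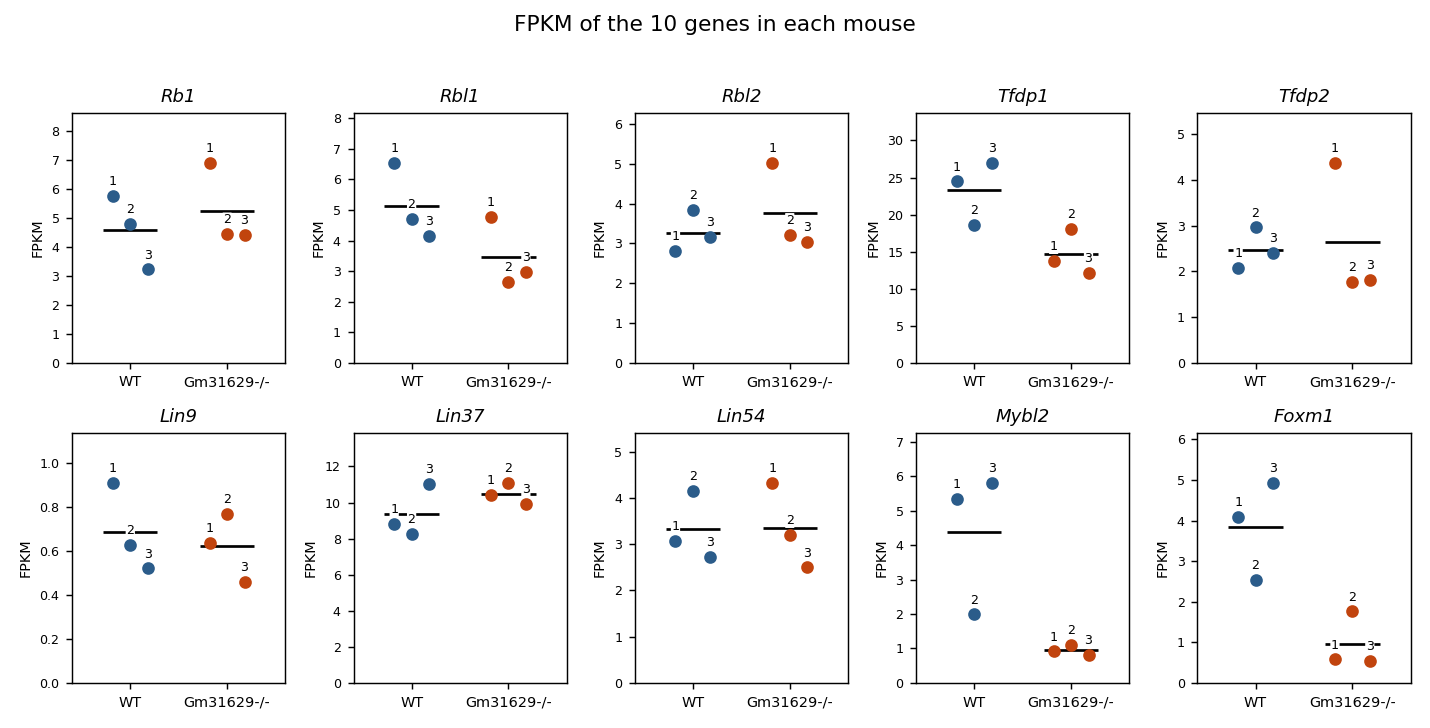
FPKM of each of the 10 genes in 3 WT (blue) and 3 Gm31629-/- mice (orange). Each point is 1 mouse with its number, black bars are group means, and every axis starts at 0. Mybl2, Foxm1, and Tfdp1 separate by genotype, with WT mouse 2 the WT point nearest to the Gm31629-/- points in all 3.

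The activators that join MuvB in G2 showed the largest differences among the members. Mybl2 (ENSMUSG00000017861, chromosome 2, 163054687 to 163084688 of GRCm38, plus strand), which encodes B-MYB, was at 5.36, 1.99, and 5.81 FPKM in WT mice 1 to 3 and at 0.915, 1.11, and 0.811 FPKM in Gm31629-/- mice 1 to 3. These levels rest on 459, 166, and 506 fragments in the WT libraries and 78, 95, and 69 fragments in the Gm31629-/- libraries. The Gm31629-/- values lay close together, and WT mouse 2 stood well below the other WT mice but above every Gm31629-/- mouse. The group means were 4.39 ± 2.09 FPKM in WT and 0.946 ± 0.153 FPKM in Gm31629-/- (3 mice per group, ± SD), a ratio of 4.64. The log2 fold change was −1.38 with a standard error of 0.32 (95% CI −2.13 to −0.63, limma adjusted p = 0.0127).

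Foxm1 (ENSMUSG00000001517, chromosome 6, 128362967 to 128376146, plus strand), which encodes a forkhead factor that turns on mitotic genes, was at 4.09, 2.54, and 4.93 FPKM in WT mice and at 0.576, 1.76, and 0.549 FPKM in Gm31629-/- mice. The groups did not overlap, and the nearest pair was mouse 2 of each genotype, with 263 fragments in WT and 187 in Gm31629-/-. The means were 3.85 ± 1.21 FPKM in WT and 0.962 ± 0.692 FPKM in Gm31629-/- (± SD, 3 mice per group), a ratio of 4.004. Its log2 fold change was −1.33 with a standard error of 0.30 (95% CI −2.03 to −0.63, limma adjusted p = 0.0112). Exons of Foxm1 overlap those of Tex52 by 144 bases and Gm44596 by 97 bases, genes with no row in the table. Without Gm31629-/- mouse 1, Mybl2 and Foxm1 had log2 fold changes of −1.37 and −1.20 (limma adjusted p = 0.0275 and 0.0277). Without WT mouse 3 both were −1.17, with a limma adjusted p of 0.0525 for Mybl2 and 0.05001 for Foxm1, just above the threshold. When libraries were rescaled to the epithelial markers, which raised the median of all genes to 0.69, Mybl2 stayed called at −0.93 (limma adjusted p = 0.0394) and Foxm1 was at −0.88 (limma adjusted p = 0.0546).

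Of the DP subunits, Tfdp1 was called lower and Tfdp2 was not called. Tfdp1 (ENSMUSG00000038482, chromosome 8, 13338751 to 13378448, plus strand), which encodes the main DP partner of E2F proteins, had the highest FPKM of the 10 genes in both genotypes. It was at 24.5, 18.6, and 27.0 FPKM in WT mice and at 13.7, 18.1, and 12.1 FPKM in Gm31629-/- mice, so the groups were separated only narrowly, at mouse 2 of each. The means were 23.4 ± 4.32 and 14.6 ± 3.11 FPKM (SD, n = 3 each), a log2 fold change of −0.64 with a standard error of 0.21 (95% CI −1.13 to −0.16, limma adjusted p = 0.0397). This call was the least stable of the 3. It was kept in 2 of the 6 fits that left out 1 mouse, was lost without Gm31629-/- mouse 1 (−0.61, limma adjusted p = 0.0824), and the difference was 0.02 under the epithelial marker scaling (limma adjusted p = 0.95).

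Tfdp2 (ENSMUSG00000032411, chromosome 9, 96196275 to 96323646, plus strand), which encodes the other DP partner measured, was at 2.07, 2.97, and 2.40 FPKM in WT mice and at 4.38, 1.76, and 1.82 FPKM in Gm31629-/- mice. Gm31629-/- mouse 1 was the highest of the 6 and the other Gm31629-/- mice were the lowest. The log2 fold change was 0.01 (95% CI −0.67 to 0.68, limma adjusted p = 0.989), and without that mouse it was −0.31 (limma adjusted p = 0.212).

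Of the pocket proteins, Rbl1 was the one with lower values in Gm31629-/- mice, and it did not pass the test. Rbl1 (ENSMUSG00000027641, chromosome 2, 157145893 to 157204534, minus strand) was at 6.55, 4.70, and 4.15 FPKM in WT mice and at 4.77, 2.64, and 2.97 FPKM in Gm31629-/- mice. The groups overlapped through Gm31629-/- mouse 1, which was above WT mice 2 and 3. The log2 fold change was −0.47 with a standard error of 0.24 (95% CI −1.03 to 0.09, limma adjusted p = 0.147). Without Gm31629-/- mouse 1 Rbl1 was called lower, at −0.67 (limma adjusted p = 0.0456), and with median-ratio scaling at −0.68 (limma adjusted p = 0.0455), whereas under the epithelial marker scaling it was at 0.09 (limma adjusted p = 0.759).

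Rb1 (ENSMUSG00000022105, chromosome 14, 73183673 to 73325822, minus strand), the retinoblastoma gene, was at 5.75, 4.8, and 3.22 FPKM in WT mice and at 6.90, 4.44, and 4.41 FPKM in Gm31629-/- mice. The groups overlapped widely, with a log2 fold change of 0.16 (95% CI −0.41 to 0.73, limma adjusted p = 0.608). Rbl2 (ENSMUSG00000031666, chromosome 8, 91070057 to 91123844, plus strand), whose product p130 is the pocket protein of quiescent cells, was at 2.82, 3.84, and 3.17 FPKM in WT mice and at 5.03, 3.23, and 3.04 FPKM in Gm31629-/- mice. Here too Gm31629-/- mouse 1 stood above the other 5, and the log2 fold change was 0.14 (95% CI −0.35 to 0.63, limma adjusted p = 0.612). The kit does not mark strand, and exons of Rb1 overlap those of Rcbtb2 by 488 bases and Lpar6 by 408 bases. Exons of Rbl2 overlap those of Aktip by 693 bases and Gm45464 by 892 bases. Fragments in these stretches cannot be assigned to 1 gene. Without Gm31629-/- mouse 1, Rb1 was at −0.02 and Rbl2 at −0.04 on the log2 scale (limma adjusted p = 0.959 and 0.865).

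The values of the MuvB core subunits overlapped between the genotypes, and none passed the test. Lin9 (ENSMUSG00000058729, chromosome 1, 180641150 to 180690694, plus strand) was the lowest of the 10 genes, at 0.910, 0.629, and 0.521 FPKM in WT mice and 0.638, 0.770, and 0.458 FPKM in Gm31629-/- mice, from 61 to 122 fragments. Its log2 fold change was −0.05 (95% CI −0.44 to 0.33, limma adjusted p = 0.809). Lin54 (ENSMUSG00000035310, chromosome 5, 100441918 to 100500639, minus strand), which encodes the DNA-binding subunit, was at 3.07, 4.15, and 2.72 FPKM in WT mice and 4.32, 3.19, and 2.5 FPKM in Gm31629-/- mice. The values of Lin54 interleaved, with a log2 fold change of −0.001 (95% CI −0.51 to 0.51, limma adjusted p = 0.999). Lin37 (ENSMUSG00000036845, chromosome 7, 30555441 to 30559838, minus strand), whose product is needed for repression by DREAM, was at 8.80, 8.28, and 11 FPKM in WT mice and 10.4, 11.1, and 9.92 FPKM in Gm31629-/- mice. WT mouse 3 lay among the Gm31629-/- mice, and the log2 fold change was 0.15 (95% CI −0.21 to 0.52, limma adjusted p = 0.450). These intervals leave room for changes of up to about 0.5 on the log2 scale in either direction for Lin54, and less for Lin9 and, downwards, for Lin37. The log2 fold changes of Lin9, Lin54, and Lin37 without Gm31629-/- mouse 1 were −0.06, −0.16, and 0.16.

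In order of mean FPKM, WT mice had Tfdp1 (23.4) and Lin37 (9.37) first, and the values of these genes did not overlap with each other or with those of any other member. Then came Rbl1 (5.13), Rb1 (4.59), Mybl2 (4.39), Foxm1 (3.85), Lin54 (3.32), Rbl2 (3.28), and Tfdp2 (2.48), each within the spread of its neighbours, and Lin9 (0.687) was last. In Gm31629-/- mice the order was Tfdp1 (14.6), Lin37 (10.5), Rb1 (5.25), Rbl2 (3.77), Rbl1 (3.46), Lin54 (3.34), Tfdp2 (2.65), Foxm1 (0.962), Mybl2 (0.946), and Lin9 (0.622). The ranges of neighbours from Rb1 to Tfdp2 overlapped, and the lowest Tfdp2 value lay just above the highest Foxm1 value. Mybl2 and Foxm1 thus stood in the middle of the order in WT mice and beside Lin9 at its end in Gm31629-/- mice, where the values of Foxm1, Mybl2, and Lin9 were not all separated by their spread.

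**Figure D2:**
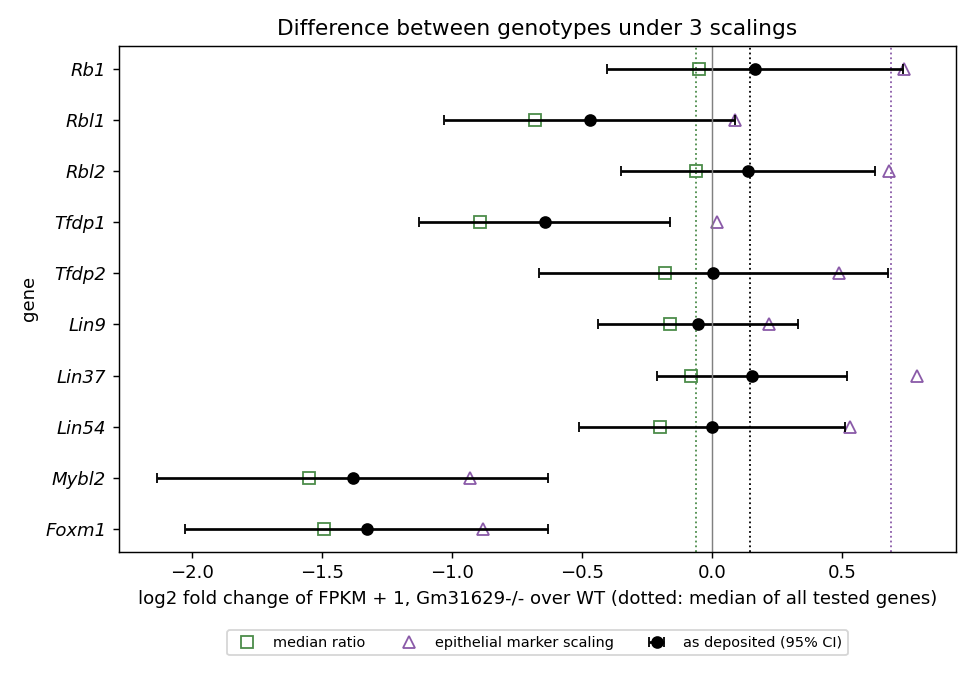
Log2 fold change of FPKM + 1 in Gm31629-/- over WT mice for each of the 10 genes (x axis), as deposited (black, with the 95% CI from limma, n = 3 per group), after median-ratio scaling (green squares) and after scaling to the epithelial markers (purple triangles). Dotted lines in the same colours are the medians of all tested genes, at 0.15, −0.06, and 0.69, and Mybl2 and Foxm1 lie to the left of 0 under all 3 scalings.

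Members were also compared as ratios within a library, on the scale of log2(FPKM + 1), where a change of scale shifts low genes less than high ones, so these ratios still depend on it in part. Mybl2 to Rbl2, which sets an activator of MuvB against the pocket protein of its repressor form, was 0.74, −0.69, and 0.71 in WT mice against −1.66, −1.001, and −1.16 in Gm31629-/- mice. The ratio was lower in each Gm31629-/- mouse than in each WT mouse, by 1.52 in the means. Mybl2 to the mean of Lin9, Lin37, and Lin54 was 0.58, −0.51, and 0.74 in WT mice against −1.28, −1.08, and −1.08 in Gm31629-/- mice, again with no overlap, and a difference of −1.41. Foxm1 to Rbl2 was 0.41, −0.45, and 0.51 in WT mice against −1.94, −0.61, and −1.38 in Gm31629-/- mice, a difference of −1.47, with WT mouse 2 only just above Gm31629-/- mouse 2. Rbl1 to Rbl2, the pocket protein of cycling cells against that of resting cells, was 0.98, 0.24, and 0.30 in WT mice against −0.06, −0.22, and −0.03 in Gm31629-/- mice. Although Rbl1 by itself overlapped between the genotypes, this ratio did not, and its difference was −0.61 (−0.37 without WT mouse 1). Without Gm31629-/- mouse 1, the differences of these 4 ratios, in the order given, were −1.329, −1.35, −1.155, and −0.628. Tfdp1 to Tfdp2 was 3.05, 2.30, and 3.04 in WT mice against 1.45, 2.79, and 2.22 in Gm31629-/- mice, which overlapped, with a difference of −0.65 that was −0.30 without Gm31629-/- mouse 1 and −0.97 without Gm31629-/- mouse 2. Each of the first 4 ratios gave p = 0.1 in an exact two-sided permutation test, the smallest p that 3 against 3 mice allow, and the fifth gave p = 0.2 in the same exact test (Benjamini-Hochberg adjusted over the 5 ratios 0.125, and 0.2 for Tfdp1 to Tfdp2), so no ratio could pass a threshold of 0.05.

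**Figure D3:**
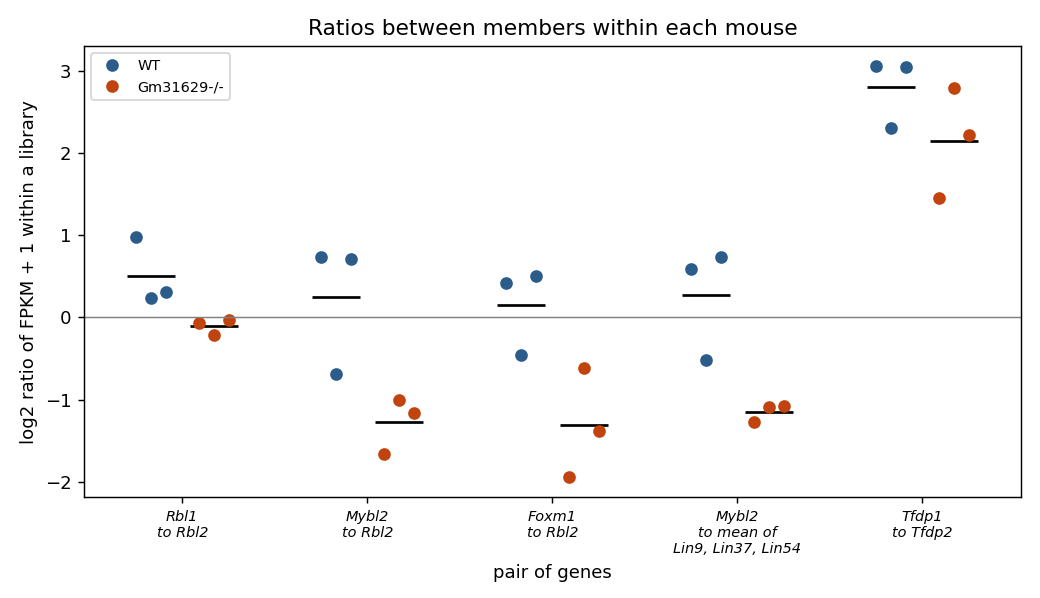
Log2 ratios of FPKM + 1 between members within each library (y axis) for 5 pairs, with 1 point per mouse, WT in blue and Gm31629-/- in orange, and group means as black bars. The points of the 2 genotypes are separate for the first 4 pairs and overlap for Tfdp1 to Tfdp2.

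The E2F genes encode the proteins that the DP subunits and pocket proteins bind. Of 8 genes, 7 were tested, 4 were called lower (2 under the epithelial marker scaling, 3 without Gm31629-/- mouse 1) and none higher, with a median log2 fold change of −0.67. Of all genes, the epithelial marker scaling called 428 of 14988 lower, and the fit without Gm31629-/- mouse 1 called 1977 of 14361 lower. Over all tested genes, 14.6% were called lower and 28.9% higher. The activators E2f2 and E2f3 were at −1.40 and −0.80 (limma adjusted p = 0.00353 and 0.0146), and the atypical repressor E2f8 at −1.89 (limma adjusted p = 0.00159). E2f4, the E2F of DREAM, was at 34.9, 31.8, and 40.0 FPKM in WT mice and at 25.9, 27.9, and 24.6 FPKM in Gm31629-/- mice, giving a log2 fold change of −0.43 (limma adjusted p = 0.0463). E2f5, the other DREAM E2F, was at 9.53, 12.8, and 9.67 FPKM in WT mice and at 19.9, 7.15, and 9.90 FPKM in Gm31629-/- mice, where mouse 1 was again the highest. E2f5 had a log2 fold change of 0.09 (limma adjusted p = 0.854), E2f1 one of −0.67 (0.137), and E2f6 one of −0.07 (0.826). E2f7 was below the filter, at 0.678, 0.327, and 0.715 FPKM in WT mice and 0.0181, 0.283, and 0.0967 FPKM in Gm31629-/- mice. E2f1, E2f2, and E2f3 were named by the study from these samples, so this count is not independent evidence of direction.

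The remaining MuvB and MYB genes did not move together. Lin52, which encodes the subunit whose phosphorylation joins MuvB to a pocket protein, was at 1.44, 2.18, and 1.68 FPKM in WT mice and at 4.58, 2.94, and 2.21 FPKM in Gm31629-/- mice. All Gm31629-/- values lay above all WT values, the nearest being Gm31629-/- mouse 3 and WT mouse 2, and the log2 fold change was 0.59 (limma adjusted p = 0.0828, 0.0420 before adjustment). Rbbp4, the histone-binding subunit, was at −0.27 (limma adjusted p = 0.245). Myb, a relative of Mybl2 that is active in intestinal crypt progenitors, was at 3.81, 2.21, and 3.35 FPKM in WT mice and at 0.633, 0.467, and 1.20 FPKM in Gm31629-/- mice, and was called lower with a log2 fold change of −1.22 (limma adjusted p = 0.00592). Mybl1, the third relative, was below the filter, with 0.0200 to 0.0689 FPKM in WT and 0.0907 to 0.262 FPKM in Gm31629-/- mice. Of the 3 genes tested, 1 was called lower and none higher, also none higher with voom, and the median was −0.27. Over all tested genes, 14.6% were called lower and 28.9% higher. The epithelial marker scaling called 1 of these genes higher, where it called 8195 of 14988 genes higher. The fit without Gm31629-/- mouse 3 called 1 higher, where 4193 of 14535 genes were called higher. With median-ratio scaling 2 were called lower, where 3636 of 14542 genes were.

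Among the cyclins and kinases that act on pocket proteins or on LIN52, 1 of 9 was called lower and none higher, also none higher with voom. The median log2 fold change was −0.22. Over all tested genes, 14.6% were called lower and 28.9% higher. The epithelial marker scaling called 3 of the 9 higher, where it called 8195 of 14988 genes higher. The fit without Gm31629-/- mouse 1 called 1 higher, where 3943 of 14361 genes were called higher. Without WT mouse 2 as well as with median-ratio scaling 3 were called lower, where 1633 of 14845 and 3636 of 14542 genes were. Ccnd1, encoding cyclin D1, was at 37.0, 16.3, and 34.5 FPKM in WT mice and at 2.56, 6.04, and 4.05 FPKM in Gm31629-/- mice, giving a log2 fold change of −2.51 (limma adjusted p = 0.00223), and is also a gene the study named from these samples. The other D cyclins did not do the same, with Ccnd2 at −0.10 and Ccnd3 at 0.43 (limma adjusted p = 0.807 and 0.0691, the latter 0.0331 before adjustment). The kinases Cdk4, Cdk6, and Cdk2 were at −0.75, −0.22, and −0.29 (limma adjusted p = 0.0744, 0.424, and 0.318), and the E cyclins Ccne1 and Ccne2 at −0.64 and 0.29 (limma adjusted p = 0.110 and 0.203). Dyrk1a, the kinase that phosphorylates LIN52, was at 0.32 (limma adjusted p = 0.164). The 3 Gm31629-/- values of Ccnd3 and Dyrk1a were all above the 3 WT values, as were those of 36.3% of all tested genes.

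**Figure D4:**
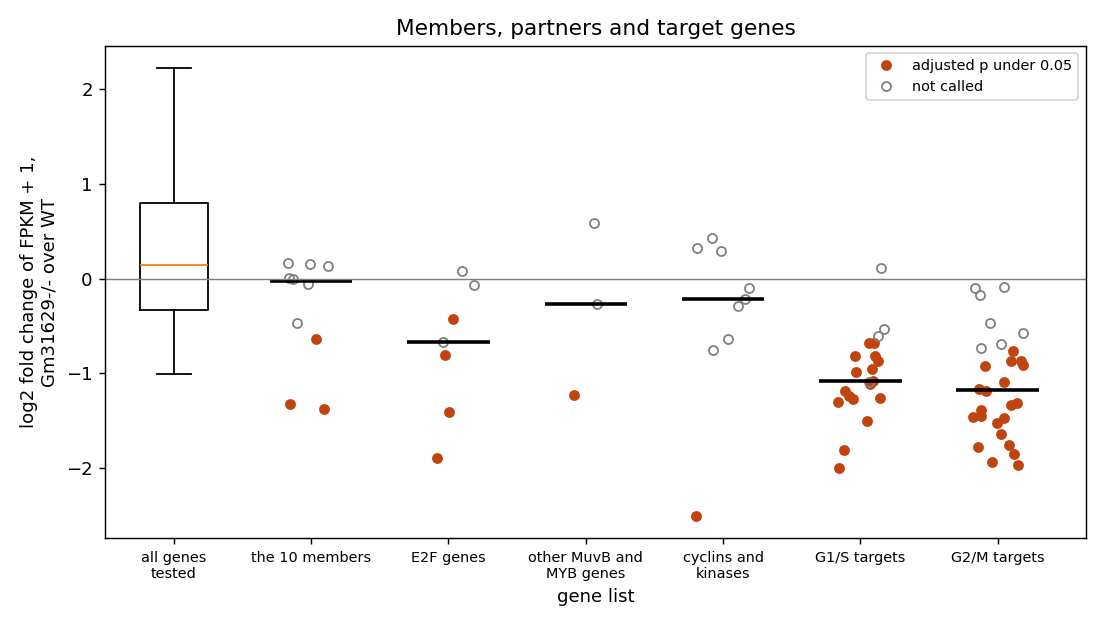
Log2 fold change of FPKM + 1 in Gm31629-/- over WT mice (y axis) for the 10 members and 5 related gene lists. Filled points passed a limma adjusted p under 0.05, open points did not, black bars are list medians, and the box at the left gives the median and quartiles of all 14657 tested genes, with whiskers at their 5th and 95th percentiles. The median is −0.03 for the members, −1.08 for the G1/S targets, and −1.17 for the G2/M targets.

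Most tested genes of the 2 target lists were called lower in Gm31629-/- mice, though not under the epithelial marker scaling. Of 22 G1/S genes that E2F proteins turn on, 21 were tested, 17 were called lower and none higher, 14 lay wholly below the WT mice, and 20 had a negative log2 fold change, with a median of −1.08 and a range from −1.997 to 0.11 for Slbp. Of all 14657 tested genes, 14.6% were called lower, 21.5% lay wholly below, and 6173 had a negative log2 fold change. Uhrf1, which maintains DNA methylation at replication, was at 15.4, 4.13, and 19.4 FPKM in WT mice and at 1.03, 3.54, and 1.92 FPKM in Gm31629-/- mice (log2 fold change −1.997, limma adjusted p = 0.0224). Mcm5, a subunit of the replicative helicase, was at 18.8, 5.35, and 20.5 FPKM in WT mice and at 2.08, 4.75, and 2.52 FPKM in Gm31629-/- mice (−1.81, limma adjusted p = 0.0218). Both genes were separated between the genotypes but nearly met at mouse 2. The helicase subunits Mcm6 and Mcm2 followed at −1.51 and −1.31 (limma adjusted p = 0.0280 and 0.0295). Cdc6 and Mcm2 of this list were named by the study from these samples. From the same samples the study had also reported whole gene sets, E2F targets and G2M checkpoint, as downregulated. The counts of both target lists are therefore not independent evidence of direction.

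Of 30 G2/M genes that MuvB, B-MYB, and FOXM1 turn on, 28 were tested, 21 were called lower and none higher, 19 lay wholly below the WT mice, and 28 had a negative log2 fold change, with a median of −1.17 and a range from −1.97 to −0.09. The shares over all tested genes were 14.6% called lower and 21.5% wholly below. Cdc20, the activator of the anaphase-promoting complex, was at 27.9, 14.3, and 25.5 FPKM in WT mice and at 3.29, 10.5, and 2.94 FPKM in Gm31629-/- mice (log2 fold change −1.97, limma adjusted p = 0.0115). Aurkb, a kinase of chromosome segregation, and Cdca3 and Ccnb2, which act in mitotic entry, were at −1.94, −1.85, and −1.77 (limma adjusted p = 0.00540, 0.00412, and 0.0115). The 7 tested genes of this list that were not called were Bub1, Cenpe, Kif23, Hmmr, Nusap1, Ndc80, and Mki67. The study named Cdk1 and Top2a of this list from these samples, and its report of a lower G2M checkpoint set came from them too. Without Gm31629-/- mouse 1, 7 G1/S and 13 G2/M genes were called lower, and without WT mouse 3, 2 and 8 were. Of all genes tested in these fits, 1977 of 14361 were called lower without Gm31629-/- mouse 1, and 978 of 14842 without WT mouse 3. Under the epithelial marker scaling 1 G1/S gene and 10 G2/M genes were called lower and 1 G1/S gene was called higher. That scaling called 428 of 14988 genes lower and 8195 higher. At an unadjusted limma p under 0.05 or with voom no gene of either list was higher.

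The mice of a genotype differed among themselves in the target genes. The mean log2(FPKM + 1) of the tested G1/S genes was 3.06, 2.09, and 3.18 in WT mice against 1.65, 2.02, and 1.56 in Gm31629-/- mice. For the G2/M genes it was 2.69, 2.14, and 2.58 in WT mice against 1.09, 1.89, and 1.05 in Gm31629-/- mice. Mouse 2 was thus the lowest WT mouse and the highest Gm31629-/- mouse in both lists. WT mouse 2 was the lowest of the WT mice in 21 of 22 G1/S and 26 of 30 G2/M genes, against 32.6% of all tested genes, and Gm31629-/- mouse 2 the highest of its group in 20 of 22 and 29 of 30, against 44.0% of all tested genes. In 8 of 22 G1/S and 11 of 30 G2/M genes, WT mouse 2 was not above the highest Gm31629-/- mouse, against 71.5% of all tested genes. Mybl2, Foxm1, and Tfdp1 had the same order, with mouse 2 lowest in WT and highest in Gm31629-/-, whereas Rb1, Rbl1, Rbl2, Tfdp2, and Lin54 were highest in mouse 1 among the Gm31629-/- mice. The epithelial marker sum was 12854 FPKM in WT mouse 2, the highest of the WT mice, and 7746 FPKM in Gm31629-/- mouse 2, the middle value of its group. The scaling factor from the geometric mean of these markers was 1.325 in WT mouse 2, the highest of the WT mice. In Gm31629-/- mouse 2 it was 0.721, the lowest of its group, so at mouse 2 this factor ran opposite to the target genes in both genotypes. The part of the epithelial markers in the order was not tested. Within each genotype, mouse 2 had the highest marker sums of macrophages, at 93.5 FPKM in WT and 1120 FPKM in Gm31629-/-, and of fibroblasts, at 34.7 and 491 FPKM, and the part of these sums in the order was not tested.

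**Figure D5:**
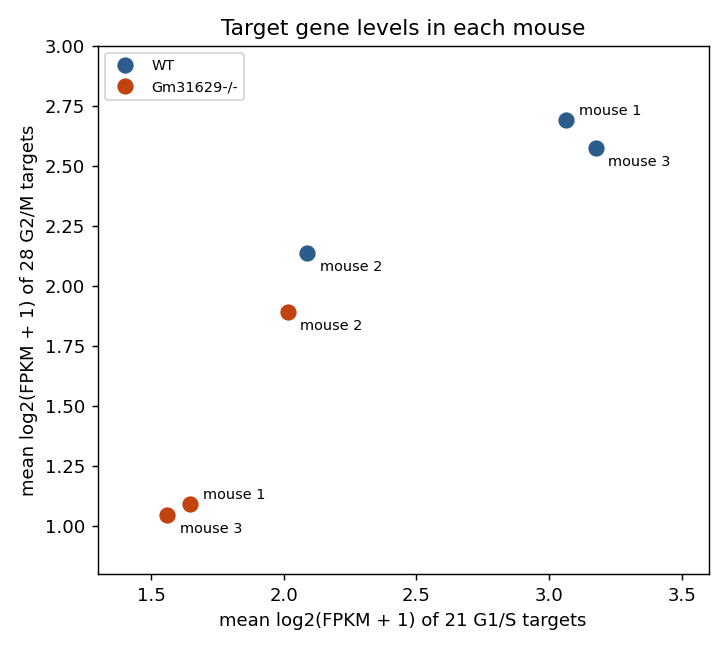
Mean log2(FPKM + 1) of 21 G1/S targets (x axis) and 28 G2/M targets (y axis) in each mouse, with 1 point per library and neither axis starting at 0. WT mice 1 and 3 lie at the upper right, Gm31629-/- mice 1 and 3 at the lower left, and mouse 2 of both genotypes between them, at 2.09 and 2.14 for WT and 2.02 and 1.89 for Gm31629-/-.

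The genes whose pattern over the 6 libraries was most like that of a member were found by Pearson's r of log2(FPKM + 1), given as a description, since the 6 points share genotype, depth, and tissue makeup and fall into 2 groups. Nearest to Mybl2 were Xylb, Mrps17, and Rfc5 (r = 0.997, 0.997, and 0.995), of which Rfc5 encodes a subunit of the clamp loader of DNA replication. Nearest to Foxm1 were Copg1, Racgap1, and Pomgnt2 (r = 0.998, 0.998, and 0.997), of which Racgap1 acts in cytokinesis. Patterns of this kind were common, with 347 of 14656 other genes at r of at least 0.95 to Mybl2 and 488 to Foxm1. Fewer genes reached that value for the 2 pocket protein genes examined, with 23 genes for Rbl1, led by Ndufs1, Galnt5, and Zfp871 (r = 0.998, 0.992, and 0.990), and 31 for Rbl2, led by Hipk1, Firre, and Tnrc6b (r = 0.990, 0.989, and 0.987).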

How the data were processed

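RNA-Seq libraries from colon tissue of 3 Gm31629-/- and 3 WT mice were prepared by the authors with the TruSeq RNA Sample Prep Kit, which does not mark strand. The submitters' processing notes name HISAT2 2.1.0, HTSeq 0.6.0, and GRCm38. The authors deposited FPKM values, 1 column per mouse, with fragments divided by gene length and library depth. The methods speak of pooled RNA, but each mouse has its own column, and each library was treated as 1 mouse. No column was left unassigned to a sample. Groups and replicate numbers came from the labels. The study's comparison (DEGseq) was not repeated here.

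GENCODE M21 supplied symbols, coordinates, and exon lengths and matched 27488 of 27546 identifiers, and promoter windows came from RefSeq. Fragments behind each value were recovered from the size of 1 fragment. Among values of at most 20 fragments, 96.3% to 97.3% in each library were within 0.1 of a whole number. Differences were fitted to log2(FPKM + 1) with limma 3.58.1 (lmFit and trended eBayes, R 4.3.3), tested on simulated data first, and p-values were adjusted by the Benjamini-Hochberg method over 14657 genes. Permutation tests used scipy 1.17.1 and plots matplotlib 3.10.9.

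The members, gene lists, and alternatives were chosen with earlier results of these data known. Named genes were all members, every gene of the E2F, MuvB and MYB, and cyclin and kinase lists, the 4 called genes with the largest change and no overlap from each target list, and the 3 genes most like Mybl2, Foxm1, Rbl1, and Rbl2. Slbp, the uncalled G2/M genes, and the genes the study named were added after their values were seen. Alternatives were TPM scale, median-ratio scaling, scaling to the epithelial markers, a pseudocount of 0.1, a minimum mean FPKM of 1 or none, the replicate number as a block, untrended eBayes, and leaving out each mouse. Voom on recovered fragments was added after seeing the data. The marker list of 1 other cell type is not reported here.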

Additional observations from a re-analysis of the deposited data

How the results depend on the processing

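When 1 mouse at a time was left out, genes called lower over the whole table ranged from 978 to 1977 (2138 with all mice) and those called higher from 2856 to 4193 (4238). Called lower were 0 (without WT mouse 3) to 3 of the 10 members, 2 to 4 E2F genes, 2 to 19 G1/S genes, and 8 to 24 G2/M genes. The median over the members ranged from −0.235 (without Gm31629-/- mouse 1) to 0.082. The log2 fold changes of members that turned sign ranged from −0.03 to 0.31 for Rb1, −0.04 to 0.25 for Rbl2, −0.31 to 0.17 for Tfdp2, −0.13 to 0.04 for Lin9, and −0.16 to 0.14 for Lin54, none of them called.

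Scaling to the epithelial markers gave 428 genes lower and 8195 higher, 1 member lower (Mybl2) and 3 higher (Rb1 at 0.74, Rbl2 at 0.68, and Lin37 at 0.79, limma adjusted p = 0.0267, 0.0281, and 0.0110), 2 E2F genes, 1 G1/S gene, and 10 G2/M genes lower, and a median over the members of 0.359 where that of all genes was 0.687. Rbl1, Tfdp1, Lin9, and Lin54 turned to 0.09, 0.02, 0.22, and 0.53. Median-ratio scaling gave 3636 genes lower, and turned Rb1, Rbl2, Tfdp2, and Lin37 to −0.05, −0.06, −0.18, and −0.08. A log2 fold change past 1 left 680 genes lower and 2704 higher. No filter left 5 of 22 G1/S genes called lower, where 1851 of 27546 genes were. Tfdp2 turned to −0.02 with a pseudocount of 0.1 and −0.02 with voom, and Lin54 to 0.01 on the TPM scale. Lin9 has no value under a mean FPKM of at least 1. The causes were not tested.

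The same-numbered mice had correlations of their deviations of 0.036, −0.108, and 0.014, within the range of the other pairs (−0.133 to 0.116). The values thus showed no sign of a pairing by number. They cannot exclude one, since the labels do not say how numbers were given. With the replicate block, 7 G1/S and 13 G2/M genes were called lower, where 1514 of 14657 genes were, and Tfdp1 was not called (limma adjusted p = 0.0915). Of the other fits without a mouse left out, Mybl2 was called in 9 of 9, Foxm1 in 8 of 9, and Tfdp1 in 6 of 9. With 3 mice per group, no exact test of a single value can go below p = 0.1.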
